A study of Mus musculus with 6 samples.

Results

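The guanylate-binding proteins (GBPs) are a family of IFN-inducible GTPases, and their 10 genes (Gbp2, Gbp2b, Gbp3, Gbp4, Gbp5, Gbp6, Gbp7, Gbp8, Gbp9 and Gbp10) were taken by symbol from the 55453 genes of a bulk RNA-Seq count table. The table held 6 libraries of bone marrow-derived macrophages (BMDM) on the C57BL/6 background, 3 from PP2Ac KO and 3 from PP2Ac WT mice. PP2Ac KO mice were LysM cre PP2Ac fl/fl animals, in which cre driven by the Lysozyme 2 promoter removes exon 1 of Ppp2ca, the gene for the catalytic subunit of the phosphatase PP2A, in the myeloid lineage. PP2Ac WT mice were bought from a supplier, so that the floxed alleles and the cre transgene were in the PP2Ac KO libraries alone and cannot be told apart from the loss of PP2Ac. Mice of both sexes, aged 6 to 10 weeks, were used in the study, and the labels give neither age nor sex per library. The labels give no treatment either. The study describes its RNA-Seq as made on BMDM of both genotypes after 4 hours with 10 ug/mL cGAMP, the cyclic dinucleotide that activates STING, and no untreated library was analysed here. The comparison addressed how macrophages without PP2Ac differ in gene expression from WT macrophages under that stimulus.

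GBPs belong to the dynamin superfamily. In macrophages, IFN-γ and type I IFN induce their transcription through JAK kinases and IRF factors, and the proteins then assemble on pathogen-containing vacuoles and on bacteria in the cytosol. There they open the vacuole to the cytosol and feed the inflammasomes that lead to pyroptosis. Mouse GBP genes lie in clusters of related copies, so that some reads match several of them.

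In the mouse build GRCm38, 5 members lie on the forward strand of chromosome 3 between 142493978 and 142638008, a span of 144.0 kb, in the order Gbp5, Gbp7, Gbp3, Gbp2b and Gbp2. The other 5 lie on the reverse strand of chromosome 5 between 105014150 and 105293698, a span of 279.5 kb, in the order Gbp8, Gbp9, Gbp4, Gbp10 and Gbp6. All 10 are annotated as protein-coding in GENCODE M21. The RefSeq promoter table for GRCm38.p6 held promoters of the 5 chromosome 3 members. The 250 bases before each start site were searched on both strands for 2 sequence elements through which IFN signaling acts, the IFN-stimulated response element (ISRE, searched as GAAA, any 2 bases and GAAA) and the IFN-γ-activated site (GAS, searched as TTC, any 3 bases and GAA). A stretch of 180 bases is printed for each gene, because these 5 genes include the members with most of the family's reads. Capitals mark the matches on either strand.
Gbp5 promoter, chr3:142496740-142496919, + strand: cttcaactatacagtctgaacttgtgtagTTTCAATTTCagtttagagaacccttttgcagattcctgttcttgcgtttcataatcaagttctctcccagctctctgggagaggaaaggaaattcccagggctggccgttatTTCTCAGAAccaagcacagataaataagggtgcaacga
Gbp7 promoter, chr3:142530156-142530335, + strand: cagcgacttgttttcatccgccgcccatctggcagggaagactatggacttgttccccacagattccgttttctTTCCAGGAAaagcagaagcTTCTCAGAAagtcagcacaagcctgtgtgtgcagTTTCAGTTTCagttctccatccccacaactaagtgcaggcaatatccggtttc
Gbp3 promoter, chr3:142559864-142560043, + strand: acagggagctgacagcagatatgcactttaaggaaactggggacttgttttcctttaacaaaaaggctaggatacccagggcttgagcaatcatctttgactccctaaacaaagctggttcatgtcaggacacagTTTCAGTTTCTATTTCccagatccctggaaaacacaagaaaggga
Gbp2b promoter, chr3:142594667-142594846, + strand: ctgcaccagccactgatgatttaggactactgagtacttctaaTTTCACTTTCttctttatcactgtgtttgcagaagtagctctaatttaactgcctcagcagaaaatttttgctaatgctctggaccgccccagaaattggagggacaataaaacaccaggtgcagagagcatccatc
Gbp2 promoter, chr3:142620442-142620621, + strand: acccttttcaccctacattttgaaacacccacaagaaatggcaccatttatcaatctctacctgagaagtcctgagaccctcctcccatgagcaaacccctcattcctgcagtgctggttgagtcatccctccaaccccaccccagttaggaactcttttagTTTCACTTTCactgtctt

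Each of the 5 genes had a start site whose promoter held an ISRE match. Counted by promoter rather than by gene, 2.98% of the 32851 promoters in the table held such a match. In Gbp2 the match lay at -59 to -50 from the start site, in Gbp7 at -53 to -44, in Gbp5 at -165 to -156 and in Gbp2b at -137 to -128. Gbp3 had 2 overlapping matches, at -45 to -36 and at -39 to -30, and a second Gbp3 start site in the table had none. GAS matches were found in Gbp5, at -245 to -237 and -52 to -44 (the former lies outside the printed stretch), and in Gbp7, at -106 to -98 and -87 to -79. Of all promoters, 7.02% held a GAS match and 0.332% held both elements, as Gbp5 and Gbp7 did. Positions are counted from the RefSeq start sites. GENCODE M21 starts Gbp2 earlier, at 142620602, so that by this annotation the Gbp2 match lies within the first exon, and it starts Gbp5 at 142493978, upstream of the whole window. These matches describe the letters and are not evidence of binding. The promoters of Gbp4, Gbp6, Gbp8, Gbp9 and Gbp10 were not in the table.

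Library totals ranged from 35257156 to 47390899 counts, at which 3 counts corresponded to 0.0604 to 0.0909 CPM (counts scaled to library size). Ppp2ca had 33 to 47 counts per PP2Ac KO library against 8279 to 10654 per PP2Ac WT library. The 7 macrophage markers summed to 7294 to 7483 CPM in PP2Ac KO and 6170 to 6801 CPM in PP2Ac WT, of which Lyz2 supplied 8.86 ± 1.13 and 7.30 ± 0.912 CPM (SD, n = 3). Lyz2 was the lowest of the 7, far below Csf1r, whose group means were 3405 (PP2Ac KO) and 3011 CPM (PP2Ac WT). Sequence that Lyz2 shares with other genes was not measured, and how shared reads were counted is not given. The true level of Lyz2 is therefore uncertain. Of the macrophage markers 2 of 7 were higher in PP2Ac KO, Fcgr1 (log2FC 0.70) and Mertk (0.27). Blocking by replicate number gave 4 of 7, Csf1r (adjusted p = 0.0028, edgeR) and Lyz2 (adjusted p = 0.0118, edgeR) being added. Over all 13680 genes tested, the block raised the number higher from 2470 to 3343 and the number lower from 2604 to 3615. Markers of other leukocytes were low in both groups. Those of T and NK cells summed to 0.575 to 0.697 CPM in PP2Ac KO and 0.358 to 0.575 CPM in PP2Ac WT (Cd8a at 0), those of neutrophils to 0.839 to 0.939 and 0.664 to 0.906 CPM (Ly6g at 0), those of B cells to 1.51 to 2.11 and 1.13 to 1.38 CPM, and those of dendritic cells to 1.03 to 1.82 and 0.763 to 1.11 CPM, among which Siglech was higher in PP2Ac KO (log2FC 0.97). The 4 fibroblast markers Col1a1, Col1a2, Col3a1 and Dcn moved with genotype, 4 of 4 lower, from a summed 74.9 to 117.7 CPM in PP2Ac WT to 22.7 to 33.4 CPM in PP2Ac KO. The part of these markers in the GBP differences was not tested. In bulk RNA, fewer cells of a type and less RNA per cell cannot be told apart.

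GBP transcripts were higher in PP2Ac KO BMDM. Together the 10 genes made up 0.429%, 0.386% and 0.363% of all counts in the 3 PP2Ac KO libraries against 0.211%, 0.142% and 0.121% in PP2Ac WT, and the groups did not overlap. Scaled by TMM, the family summed to 4237 ± 430 CPM in the knockout group and 1477 ± 479 CPM in the WT group (SD, n = 3 each), a ratio of 2.87. Of the 10 members, 8 had enough counts to be tested, and all 8 were higher in PP2Ac KO at an adjusted p under 0.05 (FDR, from edgeR's quasi-likelihood test, adjusted after Benjamini and Hochberg over 13680 genes). Of all genes tested, 18.1% were higher at that threshold and 19.0% were lower. The same 8 passed the study's thresholds for upregulation (log2 fold change, log2FC, over 1 and FDR under 0.01), which 3.36% of all genes passed, while 2.99% passed the mirrored thresholds for downregulation and 0 members did. In all 8, every PP2Ac KO library lay above every PP2Ac WT library, as in 24.0% of all genes. In 26.8% of all genes, and in 0 members, every PP2Ac KO library lay below. The median log2FC was 1.75 over these 8 members and -0.02 over all genes tested. Gbp2b and Gbp10 had too few reads to be tested and are described separately.

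**Figure D1:**
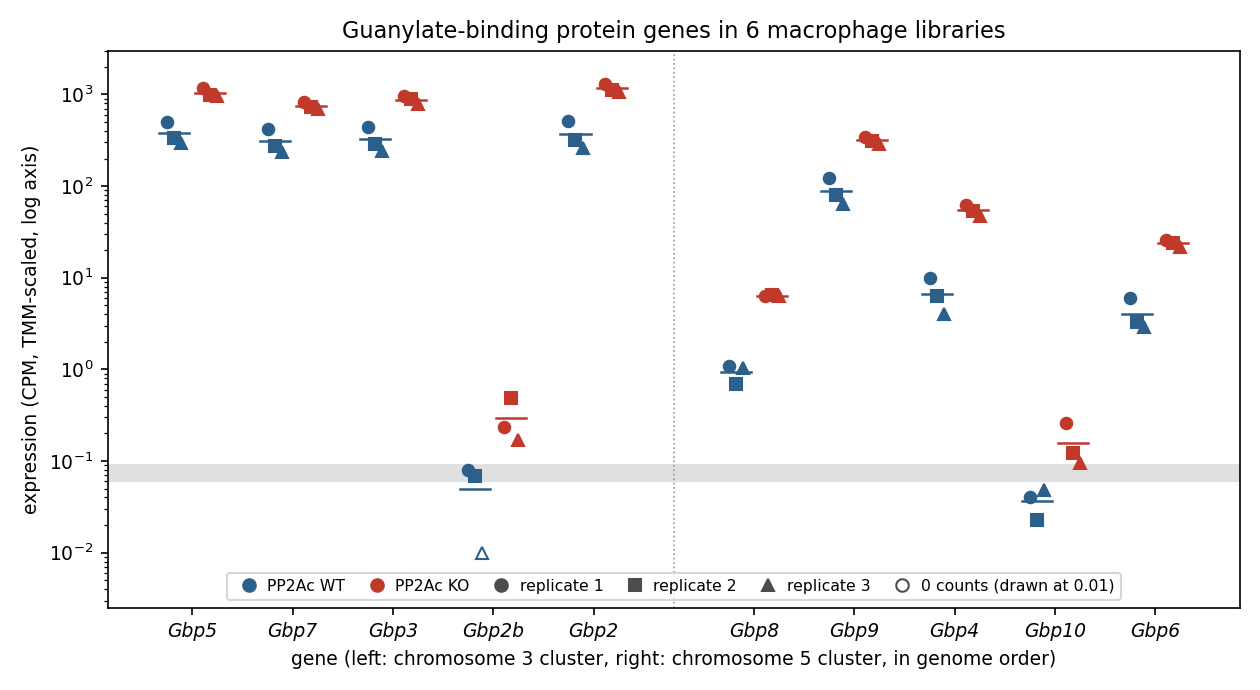
CPM of the 10 GBP genes on a log axis, with 1 point per library (blue, PP2Ac WT; red, PP2Ac KO; marker shape, replicate number), a bar at each group mean and, in grey, the CPM that 3 counts correspond to. The 8 tested members show 3 red points above 3 blue points, with Gbp4, Gbp6 and Gbp8 the most widely separated, and Gbp2b and Gbp10 lie near the grey band.

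Gbp2, whose product is recruited to the vacuole of Toxoplasma and to bacterial vacuoles, was the member with the highest level per length. It had 1298, 1133 and 1063 CPM in PP2Ac KO replicates 1, 2 and 3, and 517, 318 and 263 CPM in PP2Ac WT replicates 1, 2 and 3. The lowest PP2Ac KO library was 2.06 times the highest PP2Ac WT library. The log2FC was 1.67 (SE 0.22, 95% CI 1.18 to 2.16; adjusted p = 0.000454, edgeR).

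Gbp5, which promotes assembly of the NLRP3 inflammasome, had 1181, 982 and 969 CPM in PP2Ac KO against 504.5, 335 and 293 CPM in PP2Ac WT. Its log2FC was 1.47 (SE 0.18, 95% CI 1.05 to 1.88; adjusted p = 0.000385, edgeR). Its libraries were separated by a similar margin to those of Gbp3, with 1.92 for the lowest PP2Ac KO over the highest PP2Ac WT library in Gbp5 and 1.82 in Gbp3.

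Gbp3 had 957, 883 and 797 CPM in PP2Ac KO against 439, 291 and 241 CPM in PP2Ac WT, a log2FC of 1.44 (SE 0.19, 95% CI 1.01 to 1.87; adjusted p = 0.000494, edgeR). Gbp7, which has been linked to the assembly of the phagocyte oxidase, had 835, 728 and 686 CPM in PP2Ac KO against 417, 273.5 and 236 CPM in PP2Ac WT. It changed least of the 8, with a log2FC of 1.28 (SE 0.19, 95% CI 0.86 to 1.70; adjusted p = 0.000806, edgeR). Even for Gbp7 the groups did not overlap, with the lowest PP2Ac KO library at 1.65 times the highest PP2Ac WT library. Of its sequence in 50-base windows, 12.7% occurs in another gene, and 637 bases of its exons lie over the processed pseudogene Gm43802, which had 0 counts in every library.

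On chromosome 5, Gbp9 was the most highly expressed member. It had 346, 314 and 285 CPM in PP2Ac KO against 124, 80.2 and 63.7 CPM in PP2Ac WT, and a log2FC of 1.82 (SE 0.21, 95% CI 1.35 to 2.29; adjusted p = 0.000255, edgeR). Among the 8 tested members, it stood between those of chromosome 3 and the other 3 of chromosome 5 both in level per kb and in log2FC.

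Gbp4, whose product has been described as an inhibitor of IRF7, had the largest log2FC of the tested members in the reported fit, ahead of Gbp8, whose interval overlapped its own. Without PP2Ac WT replicate 3 the order turned, with 2.74 for Gbp4 and 2.82 for Gbp8. Gbp4 had 62.2, 53.1 and 47.4 CPM in PP2Ac KO and 9.86, 6.28 and 4.01 CPM in PP2Ac WT, so that the lowest PP2Ac KO library was 4.8 times the highest PP2Ac WT library. The log2FC was 3.0 (SE 0.25, 95% CI 2.43 to 3.57; adjusted p = 7.42e-05, edgeR), an 8.0-fold difference.

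Gbp8 was low in both groups but nearly constant within PP2Ac KO. It had 6.27, 6.45 and 6.30 CPM in PP2Ac KO, from 213 to 266 counts, and 1.09, 0.690 and 1.03 CPM in PP2Ac WT, from 30 to 54 counts. With a log2FC of 2.75 (SE 0.16, 95% CI 2.39 to 3.12; adjusted p = 3.9e-05, edgeR), it had the lowest adjusted p of the family and the widest gap between groups, 5.77 from the highest PP2Ac WT to the lowest PP2Ac KO library. Gbp4, Gbp8 and Gbp9 share 60 to 61 bases of exon on the same strand, and reads confined to those bases cannot be assigned to any of the 3. Of the 50-base windows of Gbp8, 18.1% occur in another GBP gene, 6.64% in the far more abundant Gbp9, and how such reads were counted is not given, so the low counts of Gbp8 are uncertain.

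Gbp6, a member with a described role in resistance to intracellular bacteria, had 25.9, 23.8 and 21.4 CPM in PP2Ac KO and 5.94, 3.31 and 2.91 CPM in PP2Ac WT. Its log2FC was 2.53 (SE 0.22, 95% CI 2.04 to 3.02; adjusted p = 8.21e-05, edgeR). Its level was uncertain, because 70.7% of the 50-base windows of its transcripts occur in another gene, mainly Gbp10 and the annotated gene Gm43302, and how such reads were counted is not given. Gm43302 overlaps 1726 bases of Gbp6 exons and had 0 counts in every library. Summing Gbp6 with Gbp10 before the fit gave a log2FC of 2.53. Gbp10 had only 0.719% of the counts of Gbp6, so the sum could hardly differ and does not test for shared reads.

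The 2 members that were not tested had few reads. Gbp2b, the mouse gene whose product is called GBP1, had 10, 16 and 7 counts in PP2Ac KO and 4, 3 and 0 counts in PP2Ac WT. Over the groups this was 33 against 7 counts, a ratio of 5.45 after library scaling (95% exact interval 2.37 to 14.6, counting error only). Gbp10 had 11, 4 and 4 counts in PP2Ac KO and 2, 1 and 2 counts in PP2Ac WT, or 19 against 5 counts, a ratio of 4.39 (95% exact interval 1.59 to 15, counting error only). Both were thus low beside their neighbours, and Gbp10 had 0.719% of the counts of Gbp6. Because 84.1% of the 50-base windows of Gbp10 are shared with another gene, 73.3% with Gbp6 alone, its counts cannot be read as its true level. Of the windows of Gbp2b, 1.84% are shared with another gene.

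Compared per length (TMM-scaled CPM per kb of exon), the order of the levels in PP2Ac WT was Gbp2 at 145.4 ± 53.0 per kb (SD, n = 3), Gbp3 at 99.1 ± 31.4, Gbp5 at 56.9 ± 16.8, Gbp7 at 55.0 ± 17.1 and Gbp9 at 17.2 ± 5.98. Gbp4 at 0.896 ± 0.394, Gbp6 at 0.681 ± 0.276 and Gbp8 at 0.271 ± 0.0621 per kb followed far below, and Gbp2b and Gbp10 were at 0.0177 and 0.00955. In PP2Ac WT the ranges of Gbp2 and Gbp3, of Gbp3 and Gbp5, of Gbp5 and Gbp7, of Gbp4 and Gbp6 and of Gbp2b and Gbp10 overlapped. All genes were measured in the same libraries, so overlapping ranges do not show that their levels were alike. Within each of the 6 libraries the order of the 8 tested members was the same. In PP2Ac KO the ranges of Gbp5 and Gbp7 and of Gbp2b and Gbp10 overlapped, and Gbp2 reached 462.9 ± 48.0 per kb (SD, n = 3). When only exon bases free of windows shared with another gene were counted as length, Gbp6 in PP2Ac WT moved from 0.681 to 2.32 per kb, above Gbp4 at 0.972, and Gbp7 moved above Gbp5 (63.0 and 57.8), so the order of these neighbours depended on how length was measured. The counts were left unchanged, so the shorter length is apt only if shared reads were not counted. How they were counted is not given.

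By full exon length, the 3 members with less than 1 CPM per kb in PP2Ac WT among those tested were Gbp4, Gbp6 and Gbp8. They were those with the 3 largest fold changes. Without shared windows Gbp6 was at 2.32 per kb, still below Gbp9 at 18.7. The level in PP2Ac WT is also the denominator of the fold change, so level and fold change are not independent. To compare members without the differences between libraries, the counts of each were divided by those of Gbp2 in the same library. Gbp4 had 4.79, 4.69 and 4.46 counts per 100 Gbp2 counts in PP2Ac KO and 1.91, 1.97 and 1.52 in PP2Ac WT. Gbp6 (1.99 to 2.10 against 1.04 to 1.15), Gbp8 (0.483 to 0.593 against 0.210 to 0.390) and Gbp9 (26.7 to 27.7 against 23.9 to 25.2) were likewise higher relative to Gbp2 in PP2Ac KO. Gbp7 went the other way, at 64.3, 64.3 and 64.6 per 100 in PP2Ac KO and 80.7, 86.0 and 89.6 in PP2Ac WT, as did Gbp3 (73.7 to 77.9 against 84.9 to 91.7) and Gbp5 (86.6 to 91.2 against 97.6 to 111.5). All 4 chromosome 5 members tested thus gained on Gbp2, and the other 3 chromosome 3 members tested lost ground to it.

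The chromosome 5 members together had 10.3, 10.7 and 10.3 counts per 100 counts on the chromosome 3 members in PP2Ac KO and 7.49, 7.43 and 6.94 in PP2Ac WT, 1.43 times as many. In none of these 8 ratios did the groups overlap. The exact permutation test (two-sided) gave p = 0.1 for each, also after Benjamini-Hochberg adjustment over the 8. That is the smallest p that 3 libraries against 3 allow. How many of all genes would separate in such a ratio was not computed. In CPM, 24.0% of all genes separated with PP2Ac KO above and 26.8% with PP2Ac KO below. The ratios restate the log2FC values and are not separate support for them. The median log2FC was 1.45 over the 4 tested members on chromosome 3 and 2.64 over the 4 on chromosome 5.

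**Figure D2:**
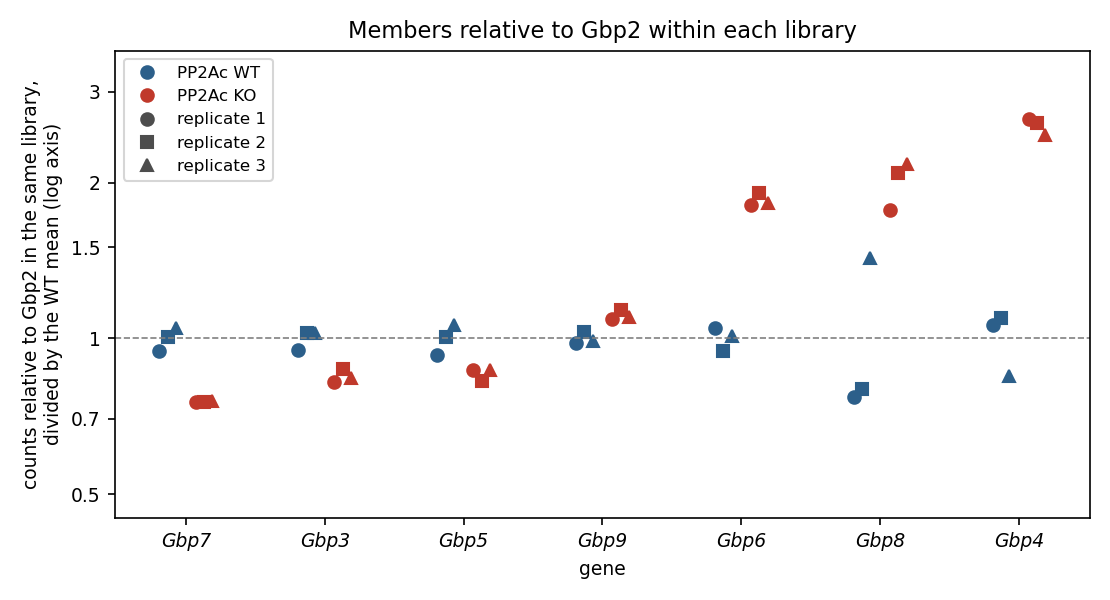
Counts of 7 members relative to Gbp2 in the same library, divided by the mean of the PP2Ac WT libraries, on a log axis, with 1 point per library. The PP2Ac KO points lie below those of PP2Ac WT for Gbp7, Gbp3 and Gbp5 and above them for Gbp9, Gbp6, Gbp8 and Gbp4, with no overlap between the groups.

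The members also varied together among libraries of the same genotype. PP2Ac WT replicate 1 was the highest of its group in 8 of 8 tested members, whereas it was the highest in 40.5% of all genes tested, and replicate 3 was the lowest in 7 of 8. Within PP2Ac KO, replicate 1 was the highest in 7 of 8 members and in 35.6% of all genes. The highest over the lowest library was 1.58 (Gbp8) to 2.46 (Gbp4) in PP2Ac WT and 1.03 (Gbp8) to 1.31 (Gbp4) in PP2Ac KO, so every tested member spread more among the PP2Ac WT libraries. This was not particular to the GBPs. The listed immunity-related and very large GTPases also spread more in PP2Ac WT, from Gvin1 (1.28 against 1.16) to Iigp1 (2.59 against 1.25). The shares of all genes with that spread, or with replicate 3 lowest, were not computed. Ifnb1, which encodes IFN-β, had 8.86, 5.91 and 4.32 CPM in PP2Ac WT replicates 1, 2 and 3, the same order as Gbp4. In PP2Ac KO it had 19.2, 13.1 and 15.4 CPM, with replicate 1 again the highest. The order differed there, since replicate 2 was the lowest for Ifnb1 and replicate 3 for Gbp4 and for 7 of 8 members in all.

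Of the 12 nearest tested genes, 3 on each side of a cluster, those other than Gbp11 had a log2FC between -0.93 (Zfp951, adjusted p = 0.0102, edgeR) and 0.87 (Gm42141, adjusted p = 0.0674, edgeR; 0.0481 with the replicate block). On chromosome 3, the nearest tested genes were Pdlim5, 98.3 kb away, with a log2FC of 0.18 (adjusted p = 0.108, edgeR; 0.00341 with the replicate number as a block), and Kyat3, 63.0 kb away, at 0.09 (adjusted p = 0.563, edgeR). Further out, Gtf2b, 127.0 kb away, was at 0.13 (adjusted p = 0.145, edgeR) and Pkn2, 152.9 kb away, at 0.30 (adjusted p = 0.0126, edgeR). The other 2 on this chromosome are not local, since Rap1gds1 (0.20, adjusted p = 0.0177, edgeR) lay 3418.8 kb away and Gm43162 (0.27, adjusted p = 0.785, edgeR) 3515.9 kb away. On chromosome 5, Abcg3 lay 31.4 kb away at 0.37 (adjusted p = 0.321, edgeR), and Lrrc8b 122.1 kb away at 0.03 (adjusted p = 0.845, edgeR). The only neighbour among the 12 with a log2 fold change over 1 was Gbp11, a GBP copy annotated as a polymorphic pseudogene 29.3 kb from Gbp6. Gbp11 had 22, 25 and 28 counts in PP2Ac KO and 17, 3 and 10 in PP2Ac WT, with a log2FC of 1.53 (SE 0.43; adjusted p = 0.0194, edgeR). Its call was lost without PP2Ac KO replicate 2 (adjusted p = 0.0661, edgeR) or replicate 3 (adjusted p = 0.0529, edgeR).

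**Figure D3:**
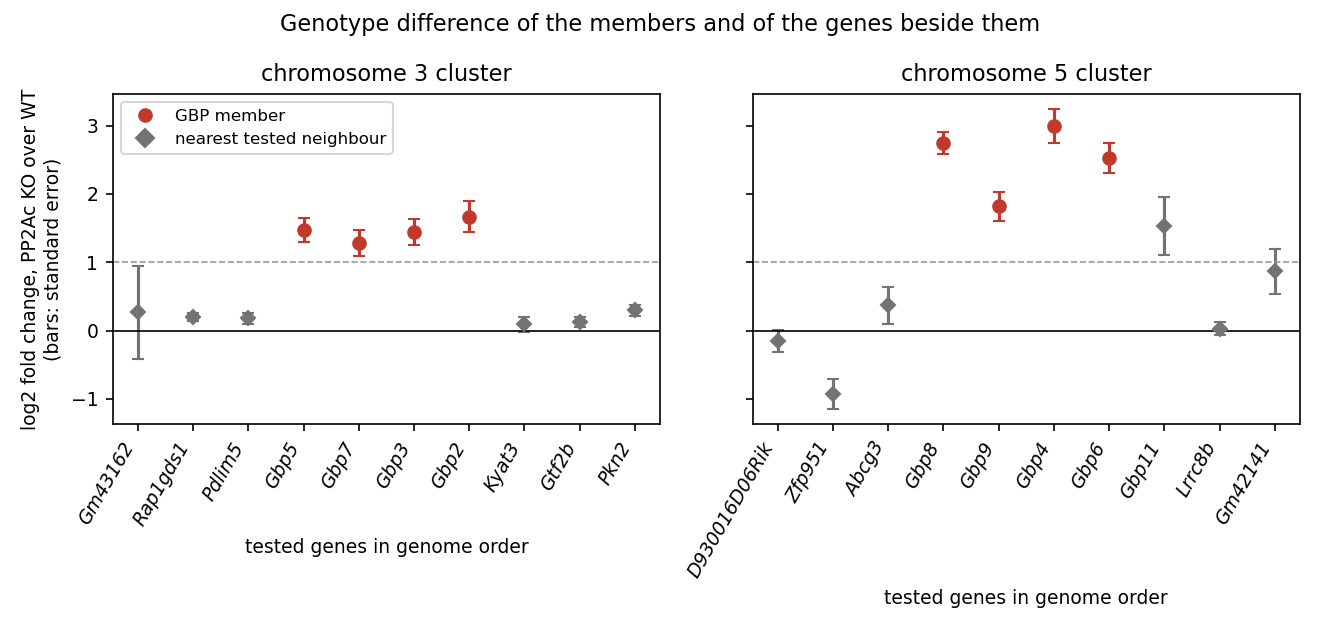
Log2 fold change of PP2Ac KO over PP2Ac WT for tested genes in genome order along the chromosome 3 and chromosome 5 clusters, with standard errors; red circles are GBP members, grey diamonds the 3 nearest tested genes on each side, and the dashed line is a log2FC of 1. The members lie between 1.28 and 3.0, and of the neighbours Gbp11 alone lies above 1.

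Other genes of the pathway in which GBPs act were taken from lists written for this comparison. Their counts stand beside 18.1% of all genes tested that were higher and 19.0% that were lower. Among IFN ligands and receptors, 2 of 5 tested genes were higher and 0 lower (median log2FC 0.19). With the replicate block, which called more of all genes in both directions, 4 were higher and 1 lower. Ifnb1 was at 6.36 ± 2.30 CPM in PP2Ac WT and 15.9 ± 3.08 CPM in PP2Ac KO (SD, n = 3), with a log2FC of 1.32 (SE 0.23; adjusted p = 0.002, edgeR). The receptor gene Ifnar2 rose by 0.23 on the log2 scale (adjusted p = 0.0129, edgeR). Ifng, which encodes IFN-γ, had 0 counts in all 6 libraries, which allows up to 0.0604 to 0.0909 CPM per library.

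Of 10 genes of the JAK-STAT pathway and the IRFs, which carry the IFN signal, 8 were higher and 0 lower (median log2FC 0.65). The increase was largest in Irf7 (log2FC 1.53, SE 0.13) and Jak2 (log2FC 1.18, SE 0.17). Irf3, which STING activates through TBK1, was at -0.05 (adjusted p = 0.636, edgeR), and Jak1 was at 0.14 (adjusted p = 0.181, edgeR; 0.0176 with the replicate block). All 3 genes for STING sensing that were tested were higher, by 0.35 (Tmem173, which encodes STING), 0.39 (Cgas) and 0.45 (Tbk1) on the log2 scale. Every one of these changes was smaller than those of Gbp4, Gbp6, Gbp8, Gbp9 and Gbp2.

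The immunity-related GTPases (IRGs) and very large GTPases are IFN-inducible families that act beside GBPs on pathogen vacuoles. All 9 were higher, and the median log2FC was 1.06. Iigp1 rose from 78.3 ± 39.6 to 406 ± 46.6 CPM (SD, n = 3) with a log2FC of 2.37 (SE 0.30), within the range of the GBPs, and Tgtp1 and Tgtp2 rose by 2.24 and 1.94. The regulatory IRGs Irgm1 and Irgm2, which control GBP and IRG targeting, rose by 0.70 and 0.71.

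Of 11 genes of the inflammasome and pyroptosis, which GBPs feed, 10 were higher and 0 lower (median log2FC 0.95). Zbp1, a sensor of Z-form nucleic acids, rose by 1.62 and Nlrp3 by 1.59. Casp4, the caspase that binds bacterial lipopolysaccharide with the help of GBPs, rose by 1.07, Casp1 by 0.95 and Gsdmd, the pore former, by 0.83. Nlrc4 was at 0.20 (adjusted p = 0.0707, edgeR; 0.0140 with the replicate block).

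Genes that deliver GBPs to their targets showed small differences. Of 10 genes for vacuole tagging and ATG conjugation, 4 were higher, 2 lower and 4 not called (3 lower with the replicate block, where Lgals3 had an adjusted p of 0.000667 in edgeR), and their median log2FC of 0.07 was near that of all genes. Atg7 and Atg5, which take part in forming the ATG12-ATG5 conjugate needed for GBP recruitment, fell by 0.27 and 0.21 on the log2 scale. Lgals8 changed most of this list, with a rise of 0.50 (adjusted p = 0.0018, edgeR). Atg16l1, Atg3 and Sqstm1 rose by 0.38, 0.30 and 0.22. CaaX prenylation is the lipid modification that anchors GBP2 and GBP5 in membranes. Of 6 genes for it and for the processing of CaaX proteins, 0 were higher and 1 lower. The lower gene was Fnta, a subunit gene of the prenylating enzymes, at -0.17 (SE 0.05; adjusted p = 0.039, edgeR). Pggt1b, another such subunit gene, was at 0.15 (adjusted p = 0.162, edgeR; 0.0111 with the replicate block).

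**Figure D4:**
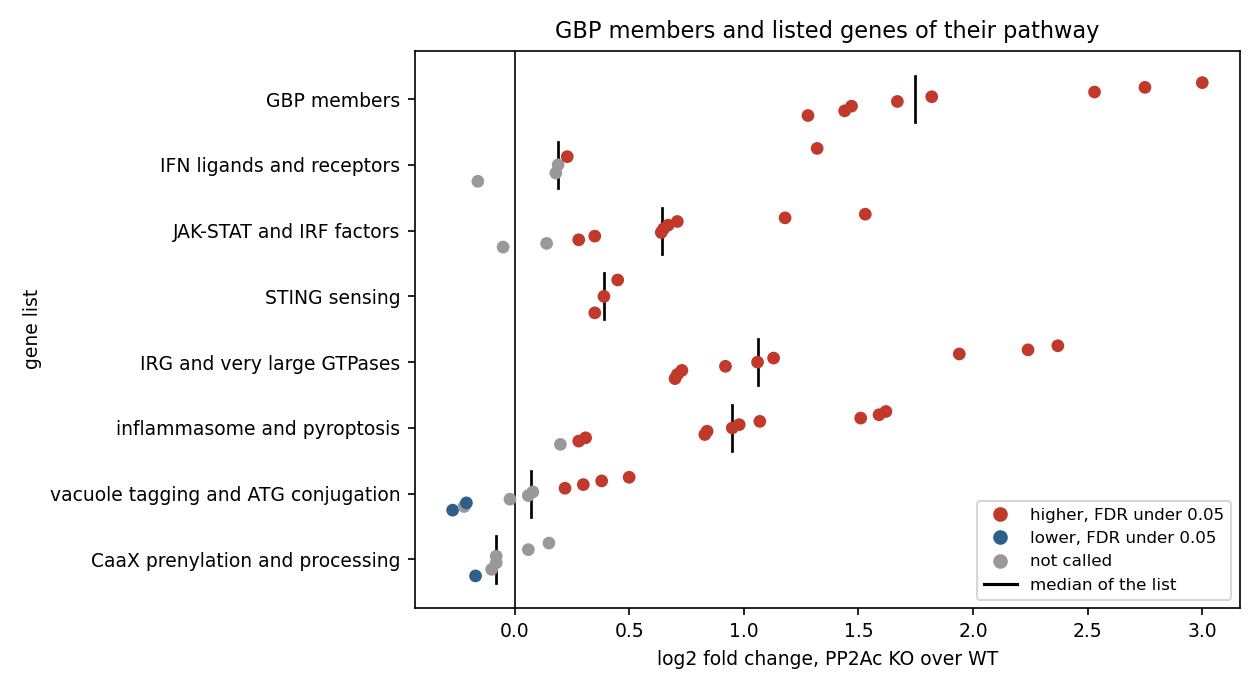
Log2 fold change of PP2Ac KO over PP2Ac WT for the 8 tested GBP members and for 7 lists of related genes, with 1 point per tested gene (red, higher; blue, lower; grey, not called at FDR under 0.05) and a vertical bar at the median of each list. The GBP members have the largest median (1.75), followed by the IRG and very large GTPases (1.06), and the list for CaaX prenylation and processing lies around 0.

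The study's threshold of a log2FC over 1 applies to the estimate. When the difference itself was tested against a log2FC of 1 (edgeR's glmTreat), 3 of the 8 members passed an FDR of 0.01, namely Gbp8 (adjusted p = 0.0007), Gbp6 (adjusted p = 0.00435) and Gbp4 (adjusted p = 0.0032). Gbp9 had an adjusted p of 0.032 and Gbp2 of 0.0782 in that edgeR test, and Gbp5, Gbp3 and Gbp7 lay higher.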

How the data were processed

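Bulk RNA-Seq libraries, 3 per genotype, were analysed, grouped by the genotype in the labels. The authors deposited raw counts of reads per gene symbol, 1 column per library. Libraries were made from poly(A) RNA with a directional kit and sequenced as paired ends. The submitters' processing notes name fastp 0.20.0, kallisto 0.46.1, STAR 2.7.1a, HTSeq 0.11.2, edgeR 3.34.0 and limma 3.48.3, and the builds mm10 and GRCm38. Annotation release, strand setting and handling of reads with several matches are not given in the sources used here. Reads shared by near-identical GBP copies may have been dropped or divided. Of the 55453 symbols, 98.3% were found in GENCODE M21 (GRCm38), which gave coordinates and exon lengths.

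The fit used edgeR 4.0.16 under R 4.3.3. After filterByExpr (minimum count 10, minimum total 15), 13680 genes remained. TMM factors scaled the libraries, genotype was tested by glmQLFTest on the glmQLFit model, and p-values were adjusted after Benjamini and Hochberg over those genes. Standard errors are the absolute log2 fold change over the square root of F, and 95% intervals use the t distribution with the fit's total degrees of freedom. Errors of CPM are SD of 3 libraries. The fit was tested on simulated data. Shared sequence was measured in windows of 50 bases over GENCODE transcripts. Ratios of summed counts have exact binomial (Clopper-Pearson) intervals, which cover counting error only, as does the floor of 3 counts. The study states biological triplicates for its cell-based experiments in general, and neither it nor the labels say whether these libraries came from separate animals, so p-values measure the spread between these libraries.

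Both genotypes carry the replicate numbers 1, 2 and 3 in the labels. Deviations from the group means correlated between libraries of the same number (r = 0.289, 0.148 and 0.337 over 13680 genes). Neither the reported fit nor the permutation test used the numbers, and a fit with the number as a block was run as an alternative. The others were scaling by RLE or the upper quartile, no filter, at least 10 counts in every library, DESeq2 1.42.0, limma-voom (limma 3.58.1), glmTreat, each library left out in turn, Gbp6 and Gbp10 summed, and length without shared windows. All 10 members, every gene of the lists, the nearest 3 tested genes on each side of a cluster and the 5 genes most alike the members could be named. A gene of the pathway lists is not reported here. The members and lists were chosen with earlier results of these data known.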

Additional observations from a re-analysis of the deposited data

How the results depend on the processing

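The 8 tested members kept their direction and their adjusted p under 0.05 in all 112 values (8 members under 14 alternatives to the test reported, glmTreat aside), with log2 fold changes between 1.12 (Gbp7) and 3.40 (Gbp4). Among the 14, the sum of Gbp6 and Gbp10 could change little, because Gbp10 had so few counts. The number higher, and the number upregulated, was 8 in each alternative except without the filter, where it was 9 of 10, since Gbp2b was then called (log2 fold change 2.41, adjusted p = 0.00351, edgeR) and Gbp10 was not (2.03, adjusted p = 0.0635, edgeR), and with glmTreat, where 3 were upregulated. Without the filter, adjusted p fell steeply at nearly the same log2FC, for Gbp2 from 0.000454 to 4.99e-21 (edgeR). The call of Gbp2b in that fit is therefore not comparable with calls of the reported fit. The block by replicate number gave 8 higher and 8 upregulated members and changed no call of a member. With each library left out in turn, the count stayed at 8, and the log2FC of Gbp2 ran from 1.48 to 2.00, of Gbp3 from 1.27 to 1.72, of Gbp4 from 2.74 to 3.40, of Gbp5 from 1.32 to 1.73, of Gbp6 from 2.35 to 2.93, of Gbp7 from 1.12 to 1.56, of Gbp8 from 2.58 to 2.89 and of Gbp9 from 1.63 to 2.13. In each of these the highest value came without PP2Ac WT replicate 1. Over all genes tested, the median log2FC was -0.088 with the upper quartile and -0.002 with RLE. Levels per kb without shared windows rose by more than the SD of the PP2Ac WT libraries for Gbp6 (2.32) and Gbp10 (0.06) in PP2Ac WT, by construction through the shorter length. Those of the other members rose by less than that SD. Depth limits Gbp2b and Gbp10, whose groups held 5 to 33 counts.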

Other observations

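Outside the family and its lists, the 5 genes whose log2 CPM followed the mean of the 8 tested members most closely over the 6 libraries were Ube2e1 (Pearson r = 0.9998), Nod1 (0.9997), Sp110 (0.9997), Nfxl1 (0.9996) and Cndp2 (0.9995). These r are a description over 6 libraries that share depth and genotype, and were picked as the highest of all genes tested. Ube2e1 encodes a ubiquitin-conjugating enzyme, Nod1 a sensor of bacterial peptidoglycan and Sp110 a nuclear body protein induced by IFN. Nod1 had 255.0, 232.5 and 230 CPM in PP2Ac KO and 119, 89.7 and 81.3 CPM in PP2Ac WT, a log2FC of 1.31 (SE 0.13; adjusted p = 0.000139, edgeR). Cndp2, a dipeptidase, changed less, with 754, 730 and 709 CPM in PP2Ac KO against 567, 508 and 491.5 CPM in PP2Ac WT and a log2FC of 0.48 (SE 0.08; adjusted p = 0.00108, edgeR). Each GBP member had an r of 0.959 (Gbp8) to 1.0 (Gbp6) with the mean of the other 7.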
